A study of Mus musculus with 9 samples.

Results

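The ERBB receptors and their EGF-like ligands were followed in mouse intrahepatic cholangiocarcinoma (iCCA) cells in which Vcam1, a cell adhesion molecule of the immunoglobulin family, had been targeted by CRISPR/Cas9. The set was chosen by gene symbol and holds 10 of the 55276 genes in the count table. Of these, 4 are receptors (Egfr, Erbb2, Erbb3 and Erbb4) and 6 are ligands (Areg, Ereg, Hbegf, Tgfa, Btc and Nrg1). After the filter on low counts 9 of the 10 were tested, among 17672 genes. The remaining gene, Erbb4, had 0 counts in all 9 libraries, where 3 counts in a library correspond to 0.0239 to 0.0554 CPM, the count scaled to the library's total.

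The study asked which genes lie downstream of Vcam1, using the PPTR line, tumour cells from a genetic mouse model of liver cancer. All 3 groups share one origin: Prom1CreERT2, a tamoxifen-inducible Cre driven from the Prom1 locus, floxed alleles of both tumour suppressors (Ptenflx/flx and Tp53flx/flx), and the Rosa-ZsGreen reporter. Vcam1ctrl cells, called WT in the labels, carry no Vcam1 edit. Vcam1KO1 and Vcam1KO2 are each 1 single-cell clone, so a difference between a clone and the control cannot be told apart from a trait of the founder cell. All cells grew in DMEM with fetal bovine serum, with no treatment given in the labels and no age for the source mice. Each group had 3 libraries, and library totals ran from 53415907 to 125223073 estimated counts.

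ERBB receptors are tyrosine kinases that pair up when a ligand binds and then signal through the RAS-ERK and PI3K-AKT routes. AREG, TGFA and EPGN bind EGFR. EREG, HBEGF and BTC bind both EGFR and ERBB4, and NRG1 binds ERBB3 and ERBB4. ERBB2 has no known ligand and acts as the partner of the other receptors, while the kinase domain of ERBB3 is nearly inactive, so that it signals mainly when paired with ERBB2 or EGFR. Most of these ligands are made as membrane proteins and are released by ADAM metalloproteases. In biliary epithelium and its tumours the family is known for driving growth and repair.

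Promoter sequences were found in the RefSeq promoter table (GRCm38.p6) for 6 of the 10 genes. Shown here are the 250 bases before the start site, 5′ to 3′ on the gene's strand, of both receptors that kept a substantial level in the clones and of the ligands Areg, Tgfa and Btc, whose transcripts fell to very different extents. Capitals mark matches to the motifs searched on both strands: the E-box CAGGTG, which factors of the Snail and Zeb families are known to bind, the cyclic AMP response element TGACGTCA, the AP-1 site TGANTCA, the TATA motif TATAAA and the GC box GGGCGG. No marked match overlaps another.
Egfr, chr11:16751953-16752202, plus strand: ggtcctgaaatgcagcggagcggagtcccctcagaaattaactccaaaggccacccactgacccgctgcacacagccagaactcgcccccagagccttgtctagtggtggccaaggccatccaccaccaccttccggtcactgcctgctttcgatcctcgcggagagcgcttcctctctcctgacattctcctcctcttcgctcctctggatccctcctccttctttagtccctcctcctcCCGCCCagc
Erbb2, chr11:98412234-98412483, plus strand: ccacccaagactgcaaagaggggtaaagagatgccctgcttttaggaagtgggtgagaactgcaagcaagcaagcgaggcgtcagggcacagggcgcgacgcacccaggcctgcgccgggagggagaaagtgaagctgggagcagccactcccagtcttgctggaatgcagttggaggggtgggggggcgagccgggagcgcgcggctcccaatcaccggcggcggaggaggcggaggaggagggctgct
Areg, chr5:91139349-91139598, plus strand: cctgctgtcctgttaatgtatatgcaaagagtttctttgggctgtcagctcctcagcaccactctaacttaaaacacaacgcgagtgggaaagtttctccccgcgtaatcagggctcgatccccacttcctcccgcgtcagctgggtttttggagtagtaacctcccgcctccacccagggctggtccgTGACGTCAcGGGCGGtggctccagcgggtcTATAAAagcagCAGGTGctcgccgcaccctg
Tgfa, chr6:86194972-86195221, plus strand: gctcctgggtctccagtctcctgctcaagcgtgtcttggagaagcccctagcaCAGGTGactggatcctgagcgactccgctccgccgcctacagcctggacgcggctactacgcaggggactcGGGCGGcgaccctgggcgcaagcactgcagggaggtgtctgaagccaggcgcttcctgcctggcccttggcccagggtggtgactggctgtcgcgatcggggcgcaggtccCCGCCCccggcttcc
Btc, chr5:91402995-91403244, minus strand: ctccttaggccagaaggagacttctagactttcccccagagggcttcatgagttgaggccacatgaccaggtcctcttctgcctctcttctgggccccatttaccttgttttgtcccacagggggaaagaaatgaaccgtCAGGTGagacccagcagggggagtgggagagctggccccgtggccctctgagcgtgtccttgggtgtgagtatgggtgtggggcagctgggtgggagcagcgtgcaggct

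The Areg window held a cyclic AMP response element 61 bases before the start site, a GC box at 52, a TATA motif at 31 and the E-box at 20. The Tgfa window held the E-box 197 bases before the start and GC boxes at 126 and 15. Btc had the E-box only, 110 bases before the start, Egfr had 1 GC box at 9 bases, and no searched motif was found in the Erbb2 window. Among all 32851 promoters of the table, 17.2% held CAGGTG, 1.55% TGACGTCA, 6.75% TGANTCA, 12.4% TATAAA and 32.7% GGGCGG. These matches describe the letters of the windows and are not evidence of binding.

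As a check of the labels, Vcam1 itself was measured at 220 to 329 CPM in Vcam1ctrl, 92.4 to 128 CPM in Vcam1KO1 and 82.96 to 119 CPM in Vcam1KO2. Its transcript was lower in all 6 Vcam1KO libraries, with a log2 fold change of -1.36, SE 0.17 and an adjusted p of 2.1e-04. Exon-targeted editing need not remove the transcript, so residual RNA does not bear on the protein. The paper reports that both clones had lost Vcam1 expression by qRT-PCR and by flow cytometry. Biliary markers were clearly present in Vcam1ctrl, where Krt19 averaged 2292 CPM, and 6 of the 9 biliary markers were lower in the clones (Krt7, Krt19, Epcam, Cdh1, Cftr and Tspan8). Spp1 was higher in the clones, and Sox9 did not pass the test. The summed biliary list was at 5400 to 6640 CPM in Vcam1ctrl, 10600 to 11100 CPM in Vcam1KO1 and 7640 to 11100 CPM in Vcam1KO2. In the clones most of that sum came from Spp1. By its keratins, the biliary epithelial identity in the labels was visible in the control but not in the clones. The summed fibroblast list was at 427 to 829 CPM in Vcam1ctrl, 10500 to 13000 CPM in Vcam1KO1 and 6210 to 7520 CPM in Vcam1KO2. In the clones most of this sum came from Col1a1 (means 8530 and 4735 CPM). In Vcam1ctrl, where Col1a1 averaged 99.4 CPM, most of it came from other genes of the list. Of the 7 tested genes of the fibroblast list 6 were called higher with the clones in 1 group. Dcn was not called there and was lower in Vcam1KO1 (74.6 and 4.34 CPM, adjusted p = 2.22e-04), and Thy1 and Lum were too low to test. The haematopoietic list summed to 4.1 to 10.5 CPM and the endothelial list to 0.794 to 4.45 CPM over all libraries. With the clones in 1 group, Lyz2 and Stab2 (2.75 CPM in Vcam1KO1) were called higher and Ptprc lower (0.41 and 0.0471 CPM, adjusted p = 2.94e-04). Lyz2 averaged 0.114 CPM in Vcam1ctrl, 4.08 CPM in Vcam1KO1 and 0.219 CPM in Vcam1KO2, and was not called in Vcam1KO2 alone. Hepatocyte markers summed to 44.3 to 176 CPM in Vcam1ctrl and to at most 3.02 CPM in the clones. In bulk libraries, fewer cells of a type and less RNA per cell cannot be told apart, and the part of these marker changes in the results on ERBB genes was not tested.

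With both clones in 1 group, 7 of the 9 tested receptor and ligand genes were lower than in Vcam1ctrl, 1 was higher (Nrg1) and 1 was not called (Btc). A gene was called where its p from the quasi-likelihood test of edgeR, adjusted by Benjamini-Hochberg over all 17672 genes, was under 0.05, and every adjusted p here is of this kind unless another tool is named. Changes were widespread in these cells: 43.0% of all tested genes were called, 21.2% as lower and 21.7% as higher. The median log2 fold change over the 9 genes was -2.33, beside 0.068 over all tested genes. All 9 genes had groups that did not overlap, 8 with every Vcam1KO library below every control library and Nrg1 with every one above, against 44.2% of all genes without overlap (23.0% lower and 21.2% higher).

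Each clone taken alone gave a similar count. In Vcam1KO1, 8 of 9 genes were lower and Nrg1 was not called, with a median of -3.38 beside 0.022 over all genes, and 59.9% of all genes called (30.0% lower, 29.9% higher). In Vcam1KO2, 7 of 9 were lower, Nrg1 was higher and Btc was not called, with a median of -2.17 beside 0.0044 over all genes, and 51.4% of all genes called (26.1% lower, 25.3% higher). In each clone 8 of the 9 genes lay wholly below the control and Nrg1 wholly above. Over all genes, 66.0% had no overlap in Vcam1KO1 (33.1% lower, 32.9% higher) and 62.1% in Vcam1KO2 (31.4% lower, 30.7% higher). Both comparisons use the same 3 control libraries.

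**Figure D1:**
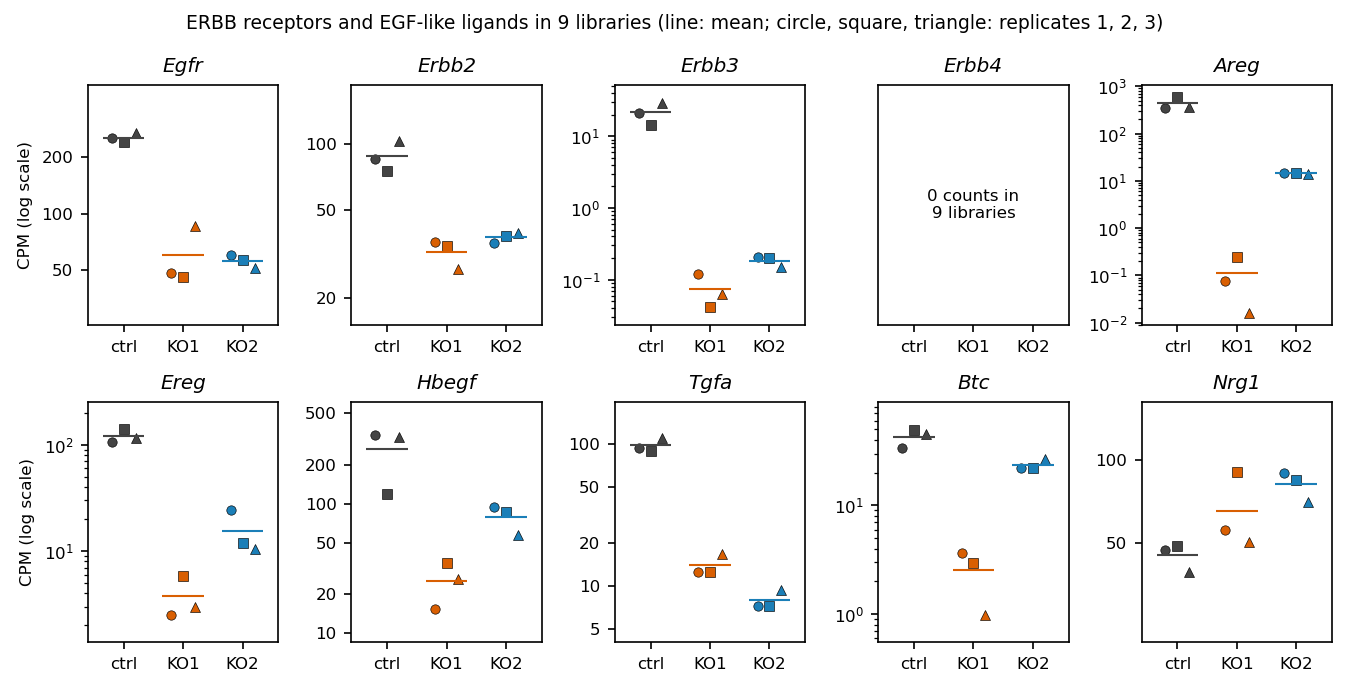
Level of each of the 10 genes in the 9 libraries, in CPM on a log axis, for Vcam1ctrl (ctrl), Vcam1KO1 and Vcam1KO2; points are libraries and lines are group means. For Areg the 3 groups lie far apart (means 442, 0.11 and 14.5 CPM), whereas for Egfr both clones lie together (60.01 and 56.2 CPM) below the control (252 CPM).

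Among the receptors, Egfr, the receptor for most of these ligands, lies on chromosome 11 at 16752203 to 16918158 (plus strand, GENCODE vM21, GRCm38). It was measured at 251, 238 and 268 CPM in the 3 Vcam1ctrl libraries, at 48.2, 46.2 and 85.7 CPM in Vcam1KO1, and at 60.01, 56.7 and 51.8 CPM in Vcam1KO2. All 6 Vcam1KO libraries were well below the lowest control library, and 1 of them, Vcam1KO1 replicate 3, stood above the other 5. Egfr was 4.34-fold lower in the clones together (log2 fold change -2.12, SE 0.185, adjusted p = 2.41e-05). The fold was nearly the same in each clone, at 4.20 in Vcam1KO1 and 4.49 in Vcam1KO2. The difference between the clones was 0.10 on the log2 scale with a 95% interval of -0.39 to 0.58 (adjusted p = 0.753), and it changed sign, to -0.25, without Vcam1KO1 replicate 3.

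Erbb2, the receptor without a ligand of its own, lies on the same chromosome at 98412470 to 98437716. Its levels were 85.3, 75.4 and 103 CPM in Vcam1ctrl, 35.8, 34.3 and 27.0 CPM in Vcam1KO1, and 35.2, 38.2 and 39.4 CPM in Vcam1KO2. Both clones lay below the control without overlap. The transcript was 2.51-fold lower (log2 fold change -1.33, SE 0.14, adjusted p = 7.46e-05), the smallest drop of the 3 receptors. The clones differed by -0.22 (Vcam1KO1 minus Vcam1KO2, 95% interval -0.55 to 0.11, adjusted p = 0.268). The genes near Erbb2 did not all move alike. Of 11 tested genes within 250 kb, 6 were lower and 1 was higher in the clones, beside 21.2% lower and 21.7% higher of all genes. Grb7, an adaptor that binds ERBB2, lies nearby and fell much further, with a log2 fold change of -7.97, while Mien1, which lies between them, was at -0.03 (adjusted p = 0.82).

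Erbb3, which pairs with ERBB2 to bind neuregulins, was close to absent in the clones. Its gene lies on chromosome 10 at 128567523 to 128589652. It was counted 2629, 788 and 2314 times in Vcam1ctrl, which is 20.9, 14.5 and 29.3 CPM. In Vcam1KO1 it was counted 8, 4 and 4 times and in Vcam1KO2 12, 14 and 10 times, or 0.0417 to 0.12 CPM and 0.148 to 0.206 CPM. The clones were thus within a few counts of the detection limit, far below every control library. The fitted difference was 167-fold (log2 fold change -7.38, SE 0.483, adjusted p = 5e-06), placing Erbb3 in the lowest 1.79% of all tested genes. The clones differed at the margin of the threshold, by -1.32 (adjusted p = 0.0488), on counts under 15. That call was lost in 6 of the 9 fits that each left out 1 library, namely those without Vcam1ctrl replicate 1, Vcam1KO1 replicates 2 or 3 or any of the Vcam1KO2 replicates, with adjusted p values of 0.0661 to 0.156. It was also lost with limma-voom (adjusted p = 0.199) with both other normalizations (0.0589 and 0.0505) and with a stricter filter on low counts (0.0559). Of 27 tested genes within 250 kb of Erbb3, 13 were higher and 1 was lower in the clones, with a median log2 fold change of 0.60. Over all tested genes 21.7% were higher and 21.2% lower, with a median of 0.068. One of the higher neighbours was Rnf41, which encodes a ubiquitin ligase for ERBB3, at 0.67 (adjusted p = 0.00703).

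Erbb4, the second receptor for neuregulins and the other receptor for HBEGF, EREG and BTC, had 0 counts in every library, as stated above. No direction can be given for it.

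The most similar profiles to each receptor were sought over the 9 libraries among 10876 genes with a mean of at least 5 CPM, by Pearson's r of log2 CPM. For Egfr these were Etv3 (r = 0.998), Thpo (0.997) and Entpd2 (0.995). For Erbb2 they were Lasp1 (0.992), Tuft1 (0.991) and Golm1 (0.991), and for Erbb3 Ptpn3 (0.997), Gcnt3 (0.997) and Aplp1 (0.996). Because the libraries form 3 groups, many genes resemble each receptor this closely, with 306, 360 and 500 genes above 0.95 for Egfr, Erbb2 and Erbb3.

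Areg, which encodes amphiregulin, was the most abundant of the 6 ligands in Vcam1ctrl and changed most. Its levels were 351, 607 and 367 CPM in the control, where it was counted between 29032 and 44034 times. In Vcam1KO1 the counts were 5, 23 and 1, or 0.0749, 0.24 and 0.016 CPM. In Vcam1KO2 the levels were 14.7, 15.03 and 13.8 CPM, with counts of 859, 1063 and 931. The 3 groups did not overlap, and Vcam1KO2 libraries varied little among themselves. Areg was 30.4-fold lower in Vcam1KO2 (log2 fold change -4.93, SE 0.401, adjusted p = 8.77e-06). In Vcam1KO1 the fitted log2 fold change was -11.78 (SE 0.566, adjusted p = 3.2e-07), which put it in the lowest 0.311% of all genes. That value rests on 29 counts in the clone and ranged from -13.17 to -11.34 over the alternatives. With both clones in 1 group it was -5.92 (SE 1.55, adjusted p = 0.0128). The direct contrast of the clones was -6.86 (adjusted p = 1.67e-05), or 116-fold lower in Vcam1KO1.

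Tgfa, the gene of transforming growth factor alpha, was the other EGFR-only ligand of the chosen set. It was found at 94.0, 89.3 and 110 CPM in Vcam1ctrl, 12.5, 12.7 and 16.9 CPM in Vcam1KO1, and 7.25, 7.25 and 9.38 CPM in Vcam1KO2. Again the groups did not overlap, but here the order of the clones was turned around, with the lowest values in Vcam1KO2. Tgfa was 6.98-fold lower in Vcam1KO1 (log2 fold change -2.80, SE 0.172, adjusted p = 1.21e-06) and 12.3-fold lower in Vcam1KO2 (-3.62, SE 0.179, adjusted p = 5.07e-07). The difference of 0.82 between the clones was called (adjusted p = 0.00412). It was the only one of the 9 genes called as higher in Vcam1KO1 than in Vcam1KO2.

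Hbegf, which encodes a heparin-binding ligand, had the widest spread within the control relative to its mean. Its levels were 342, 119 and 330 CPM in Vcam1ctrl, 15.2, 34.7 and 25.9 CPM in Vcam1KO1, and 94.0, 87.0 and 57.4 CPM in Vcam1KO2. Vcam1ctrl replicate 2 was much lower than the other 2 control libraries, yet still above all 6 Vcam1KO libraries. Hbegf was 10.4-fold lower in Vcam1KO1 (log2 fold change -3.38, SE 0.449, adjusted p = 1.56e-04) and 3.32-fold lower in Vcam1KO2 (-1.73, SE 0.421, adjusted p = 0.00689). The clones differed by -1.65 (adjusted p = 0.0128).

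The control library with the lowest Hbegf also had the highest Areg (607 CPM) and low levels of several immediate early genes, which many cells induce within minutes of growth factor stimulation. Fosb was at 21.9 CPM in it, against 1083 and 1121 CPM in the other control libraries, and Fos was at 338 against 873 and 1349 CPM. Not all such genes were low in it, since Ier2 was at 365 CPM against 239 and 284 CPM and Myc at 243 against 196 and 223 CPM. Vcam1KO1 replicate 3, the clone library with the highest Egfr, also had the highest Egr1 of all 9, at 1760 CPM. These genes were picked after their values were seen, and their part in the spread of Hbegf, Areg and Egfr was not tested. Without Vcam1ctrl replicate 2, or any other single library, Hbegf and Areg stayed lower in the clones, with log2 fold changes of -2.72 to -2.11 and -6.26 to -5.65.

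Ereg, the epiregulin gene, was also lower in both clones. It was measured at 107, 141 and 115 CPM in Vcam1ctrl, 2.49, 5.81 and 2.97 CPM in Vcam1KO1, and 24.5, 11.9 and 10.4 CPM in Vcam1KO2. No library of one group reached the range of another. The transcript was 32.0-fold lower in Vcam1KO1 (SE 0.44 on the log2 scale, adjusted p = 1.12e-05) and 7.77-fold lower in Vcam1KO2 (-2.96, SE 0.398, adjusted p = 2.13e-04). It was 4.12-fold lower in Vcam1KO1 than in Vcam1KO2 (adjusted p = 0.00331).

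Btc, which encodes betacellulin, was the ligand on which the clones parted most after Areg. Its levels were 33.4, 49.9 and 45.0 CPM in Vcam1ctrl, 3.68, 2.97 and 0.99 CPM in Vcam1KO1, and 22.3, 22.1 and 26.5 CPM in Vcam1KO2. Both clones lay below the control without overlap, Vcam1KO1 far below and Vcam1KO2 not far. Btc was 16.7-fold lower in Vcam1KO1 (log2 fold change -4.06, SE 0.417, adjusted p = 3.01e-05). In Vcam1KO2 the log2 fold change was -0.86 (SE 0.367, adjusted p = 0.0777), which did not pass the threshold, although it did in 5 of the alternatives, among them DESeq2 (0.0391) and the fit without Vcam1KO1 replicate 3 (0.00246). With the clones in 1 group the value was -1.71 with a 95% interval of -3.64 to 0.22 (adjusted p = 0.135). For that comparison limma-voom, the study's test, called Btc lower (-2.57, adjusted p = 0.0263). Averaging the contrasts of both clones instead gave -2.46 (adjusted p = 9.65e-05). The clones differed by -3.21 (adjusted p = 3.63e-04), or 9.23-fold.

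Nrg1, which encodes a neuregulin for ERBB3 and ERBB4, was the exception in direction. It was found at 47.3, 48.9 and 39.5 CPM in Vcam1ctrl, 55.7, 90.3 and 50.7 CPM in Vcam1KO1, and 89.9, 84.9 and 70.9 CPM in Vcam1KO2. All 6 Vcam1KO libraries were above the highest control library, by a small margin in Vcam1KO1 replicate 3. Nrg1 was 1.81-fold higher in Vcam1KO2 (log2 fold change 0.86, SE 0.211, adjusted p = 0.00744). In Vcam1KO1 the value was 0.54 (SE 0.21, adjusted p = 0.0506), just outside the threshold, and it depended on single libraries, at 0.70 (adjusted p = 0.0152) without Vcam1KO1 replicate 3 and 0.24 (adjusted p = 0.208) without Vcam1KO1 replicate 2. The clones differed by -0.32 with a 95% interval of -0.79 to 0.15 (adjusted p = 0.255), so the separate verdicts do not show a difference between them. Without Vcam1KO1 replicate 2 that difference was -0.62 (adjusted p = 0.0143). For both clones together Nrg1 was 1.63-fold higher (adjusted p = 0.0239), a call kept in 11 of 17 alternatives. It was lost without Vcam1ctrl replicate 1 (0.0694), 2 (0.0731) or 3 (0.0996) and without Vcam1KO2 replicate 1 (0.0534). The call was also lost with no filter on low counts (0.0507) and where at least a 2-fold change was required. The 18 annotated transcripts of Nrg1, from several start sites, were summed to 1 gene count.

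**Figure D2:**
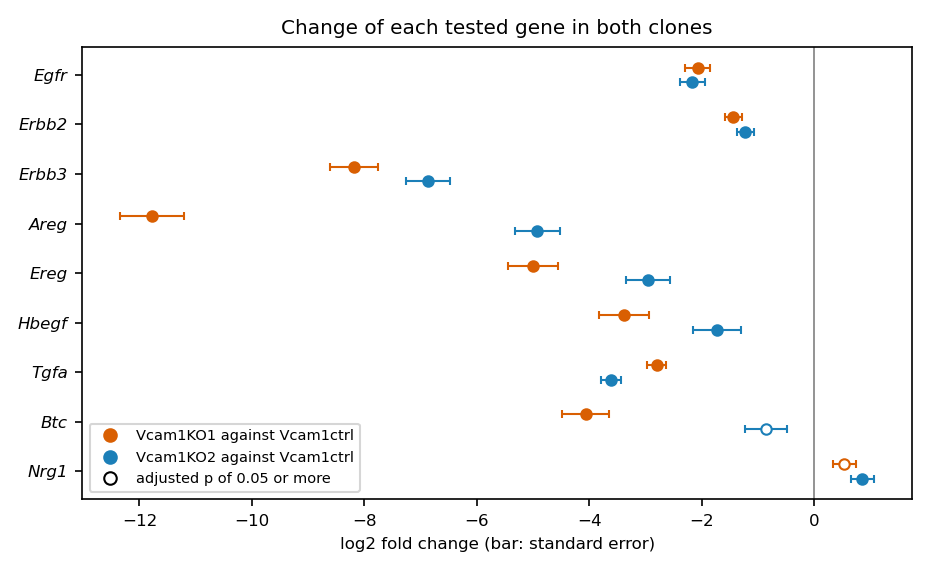
Log2 fold change of the 9 tested genes in each clone against Vcam1ctrl, with standard errors; filled points passed the threshold. Only Nrg1 lies right of 0 in both clones, and the clones lie furthest apart for Areg (-11.78 and -4.93) and Btc (-4.06 and -0.86).

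Set against each other directly, the clones differed in 6 of the 9 genes: 5 were lower in Vcam1KO1 (Erbb3, Areg, Ereg, Hbegf and Btc) and 1 was higher (Tgfa). Over all genes 38.7% were called between the clones, 18.5% as lower and 20.2% as higher. The same 6 genes had no overlap between the clones, against 54.9% of all genes (26.2% lower, 28.7% higher). The 3 uncalled genes were Egfr, Erbb2 and Nrg1. All of the called genes other than Erbb3 were ligands.

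Levels of different genes were compared only per kilobase of exon. In Vcam1ctrl the ligands summed to 476 ± 97 CPM per kb (SD, n = 3), and Areg alone made up 75.2% ± 8.5 of this sum. Hbegf followed with 12.4% and Nrg1 contributed least, with 0.934%. In Vcam1KO1 the ligand sum was 15.3 ± 4.29 CPM per kb, with mean shares of 41.3% ± 5.17 for Nrg1, 33.6% for Hbegf, 14.9% for Tgfa and 0.531% for Areg. Nrg1 was ahead of Hbegf in 2 of the 3 Vcam1KO1 libraries, and in replicate 3 Hbegf held 38.8% and Nrg1 35.4%. In Vcam1KO2 the sum was 46.5 ± 6.23 CPM per kb, with Hbegf at 35% ± 4.5, Areg at 25.9%, Nrg1 at 17% and Btc at 11.5%. The gain of Nrg1 per kilobase was small beside the loss of Areg.

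The receptors summed to 42.7 ± 5.24 CPM per kb in Vcam1ctrl, 11.5 ± 1.1 in Vcam1KO1 and 12.2 ± 0.144 in Vcam1KO2. Egfr made up 52.4% ± 3.27 of this sum in the control, Erbb2 39.4% ± 1.45 and Erbb3 8.25% ± 1.85. In Vcam1KO2 the order was turned, with Erbb2 at 59.1% ± 3.13 and Egfr at 40.6% ± 3.09. In Vcam1KO1 Erbb2 averaged 54.7% ± 12.1 and Egfr 45.2% ± 12.2, and the ranges crossed because Egfr held 59.3% in replicate 3 and 38.2% in the lowest library. Erbb3 was at 0.109% and 0.25% in the clones.

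**Figure D3:**
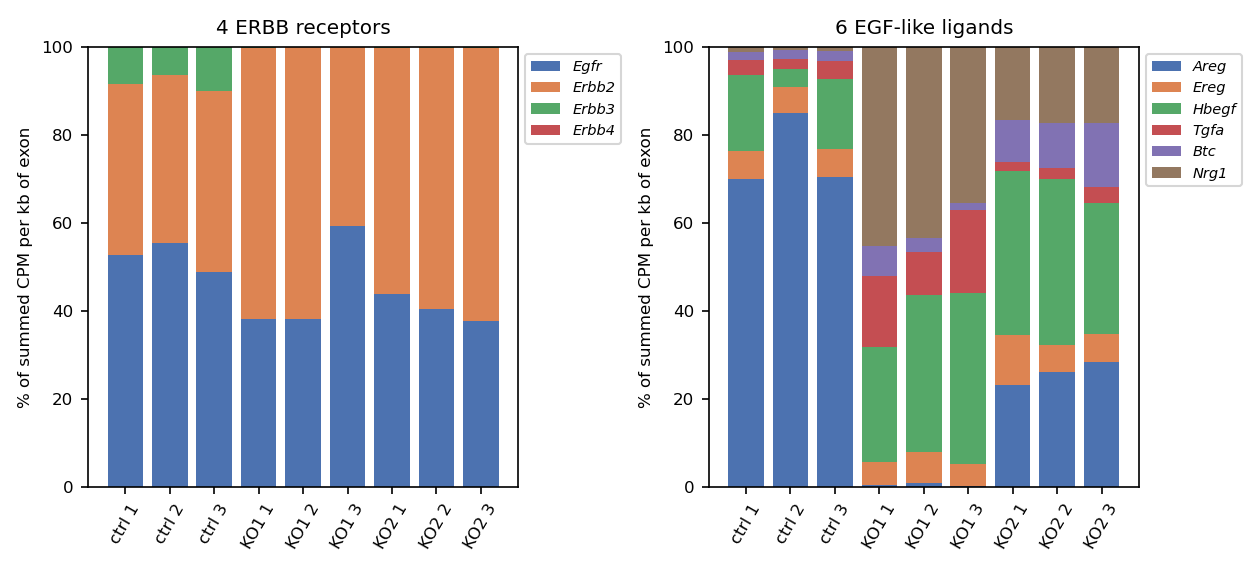
Share of each receptor in the summed receptor level and of each ligand in the summed ligand level, per kilobase of exon, in each of the 9 libraries. Areg fills 70.1% to 85% of the ligand bar in Vcam1ctrl, whereas Nrg1 fills 35.4% to 45.1% in Vcam1KO1 and 16.6% to 17.3% in Vcam1KO2.

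Ordered by level per kilobase, the control ran from Areg (364 CPM per kb) over Hbegf (54.6), Ereg (29.3), Egfr (22.3), Erbb2 (16.9), Tgfa (15.1), Btc (9.46) and Nrg1 (4.37) to Erbb3 (3.59). The neighbours whose libraries overlapped were Hbegf and Ereg, Erbb2 and Tgfa, and Nrg1 and Erbb3. In Vcam1KO1 the first 4 genes, Nrg1 (6.33), Erbb2 (6.21), Egfr (5.3) and Hbegf (5.23), each overlapped the next and had no clear order. In Vcam1KO2 Hbegf (16.4) and Areg (11.9) overlapped at the top, and Nrg1 (7.91) overlapped Erbb2 (7.22).

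Of the ligand genes, 3 lie in a cluster on chromosome 5 together with Epgn, the gene of epigen. Epgn spans 91027464 to 91035215, Ereg 91074622 to 91093646, Areg 91139599 to 91148432 and Btc 91357261 to 91402994, a stretch of 375531 bp in all. Epgn was counted too rarely to test. All 3 measured genes of the cluster fell in Vcam1KO1, with log2 fold changes of -11.78 (Areg) and -4.06 (Btc) and a 32.0-fold drop of Ereg, and both Ereg and Areg also fell in Vcam1KO2. The genes on either side of the cluster were not uniformly lower. Mthfd2l was at 0.37 (adjusted p = 0.154) and Cxcl1 at 0.69 (adjusted p = 0.584) in the clones together, and Parm1, beyond Btc, was at -0.57 (adjusted p = 0.169). Cxcl2, a neutrophil chemokine gene, was lower at -5.67 (adjusted p = 0.012).

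Other genes of the pathway were taken from 5 lists of 80 genes, 78 of them tested, and 36 of the 78 (46.2%) were called in the clones together, beside 43.0% of all tested genes. The counts were 52 (66.7%) in Vcam1KO1, beside 59.9% of all genes, and 44 (56.4%) in Vcam1KO2, beside 51.4%. These shares are near the background. Of the 5 other EGF-like ligands 3 were tested and 1 was called, Nrg2, a second neuregulin gene, at -3.77 from a mean of 1.96 CPM in Vcam1ctrl. Egf, which binds EGFR, was at 0.33 (adjusted p = 0.615) and Nrg4 at 0.72 (adjusted p = 0.418). The level of Egf was low, and it was called higher in Vcam1KO1 (1.18 CPM in Vcam1ctrl and 2.17 CPM, 0.87, adjusted p = 0.0375).

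Genes for ligand shedding and trafficking went both ways, with 2 higher, 2 lower and 5 of 9 not called. Adam17, the main sheddase of AREG, TGFA and HBEGF, was higher, with means of 69.3 CPM in Vcam1ctrl and 117 CPM in the clones (log2 fold change 0.76, SE 0.103, adjusted p = 3.59e-04). Rhbdf2, which encodes iRHOM2, a cofactor of ADAM17, was lower (127 and 43.0 CPM, -1.56, adjusted p = 1.86e-04). Its relative Rhbdf1 was not lower (99.3 and 134 CPM, 0.43, adjusted p = 0.0702) and was called higher in Vcam1KO1 (0.585, adjusted p = 0.0105). Adam12, another metalloprotease, rose from 1.82 to 113 CPM (5.96, adjusted p = 0.00428), more in Vcam1KO1 (205 CPM) than in Vcam1KO2 (21.3 CPM), a difference that was called (adjusted p = 2.03e-04). Rhbdl2, a rhomboid protease gene, was lower from a level of 2.05 CPM.

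Of the 26 adaptors and core kinases, 8 were higher, 7 lower and 11 not called. Examples of higher genes were Pik3r3, a regulatory subunit of PI3K (2.28), and Gab1, a docking protein (1.84). Sos2, an exchange factor for RAS (-1.62), was lower. The median over this list was 0.108, beside 0.068 over all genes.

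Among the 22 inhibitors of ERBB and RAS-ERK signalling, 5 were higher, 6 lower and 11 not called. Dusp6, an ERK phosphatase that is itself induced by ERK, fell from 550 to 48.4 CPM (log2 fold change -3.51, SE 0.315, adjusted p = 2.81e-05) and by nearly the same amount in both clones (-3.54 and -3.47). Spry4, a Sprouty inhibitor, was lower (-2.07), and so was Cblc, an epithelial ubiquitin ligase of the CBL family (-6.12). Lrig1, which promotes the degradation of ERBB receptors, was higher (1.71, adjusted p = 9.73e-05).

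None of the 18 ERK-responsive genes was called as higher and 5 were called as lower, with 13 not called, beside 21.2% of all genes called as lower. The median was -0.81, beside 0.068 over all genes. The 5 were Epha2 (-2.37), Plaur (-2.36), Ccnd1, the cyclin D1 gene (-2.07), Myc (-1.67) and Ier3 (-1.60). In Vcam1KO1 8 were lower, beside 30.0% of all genes, and in Vcam1KO2 7, beside 26.1% of all genes, with none called higher in either. Whether these counts of 18 genes exceed the shares over all genes was not tested. For Ccnd1 the means were 1154 CPM in Vcam1ctrl, 78.7 CPM in Vcam1KO1 and 471 CPM in Vcam1KO2, and the clones differed (-2.58, adjusted p = 1.52e-05). Other genes of the list were low in Vcam1KO1 but not in Vcam1KO2. Etv4 averaged 101 CPM in Vcam1ctrl, 10.05 in Vcam1KO1 and 135.5 in Vcam1KO2. In the same order Fosl1 averaged 109, 18 and 119 CPM, and Etv5 71.3, 23.5 and 77.65 CPM. Fos and Egr1, which respond fastest, spread widely between libraries and were not called with the clones together (adjusted p = 0.161 and 0.66).

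**Figure D4:**
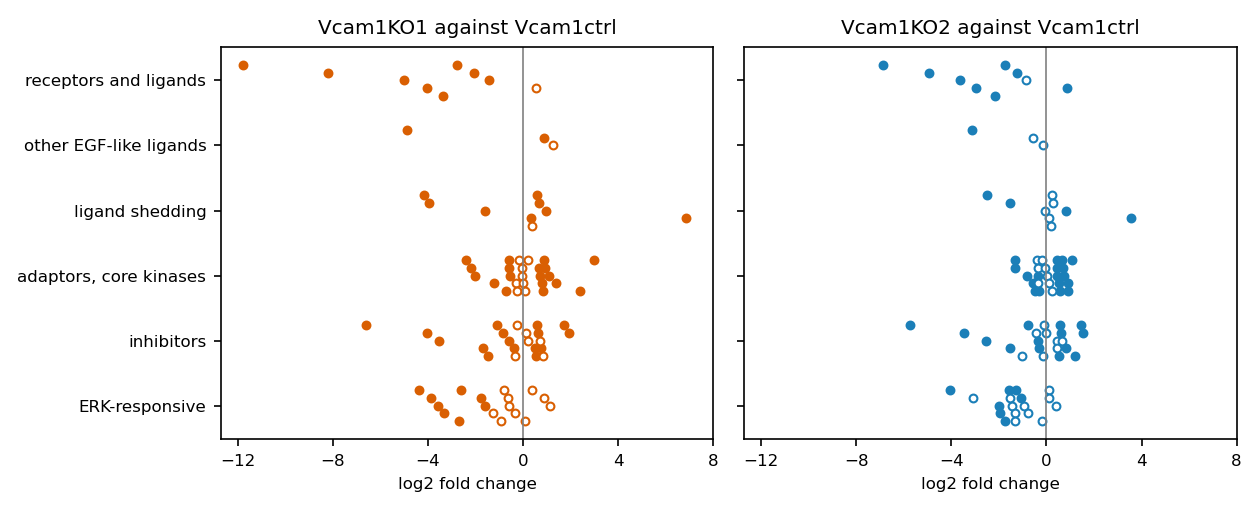
Log2 fold change of the receptor and ligand genes and of 5 pathway lists in each clone against Vcam1ctrl; each point is a gene, filled where the adjusted p was under 0.05. Receptors and ligands and the 18 ERK-responsive genes lie mostly left of 0, whereas the adaptors and inhibitors lie on both sides.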

How the data were processed

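The authors sequenced stranded, paired-end mRNA libraries and deposited 1 table of estimated counts per gene symbol, made by pseudoalignment with kallisto 0.46.1 to GENCODE vM24 transcripts (GRCm38, mm10). The step from transcripts to symbols is not given in the sources used here. The deposited expected counts were already whole, so rounding changed nothing. Members and gene lists were chosen with earlier results of these data known. Groups came from the labels. Replicate numbers follow sample order and only name libraries. The study names 3 passages but the labels tie none to a library, so p-values measure the spread between these libraries, which may be partly technical.

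Counts were filtered with filterByExpr and scaled by TMM in edgeR 4.0.16 (R 4.3.3), leaving 17672 of 55276 genes. The quasi-likelihood test compared both clones as 1 group with Vcam1ctrl, and in a fit with 3 groups each clone with Vcam1ctrl and the clones with each other. CPM values use TMM-scaled library sizes. Lengths are the union of exons in GENCODE vM21. Intervals are 95% intervals of the fitted log2 fold change. The test was first run on simulated counts with few genes changed, all 2-fold and in Vcam1KO1 only. That run does not cover changes as widespread as those found here. Libraries of 1 group differed by more than sampling noise, with a chi-square per degree of freedom of 35.8 to 275. In both clones replicates 1 and 2 were closest (36 in Vcam1KO1 and 35.8 in Vcam1KO2). Pairs with replicate 3 gave 240 and 275 in Vcam1KO1 and 166 and 113 in Vcam1KO2. Alternatives were limma-voom 3.58.1 (the study's test), DESeq2 1.42.0, upper-quartile and RLE normalization, other filters, a 2-fold limit, the average of both clone contrasts, fits on 6 libraries, longest transcripts as lengths, and leaving out each library.

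Named were all 10 members, the 4 genes of each pathway list with the largest change past the threshold and at least 5 CPM, defining markers, Vcam1, and the 3 genes most similar to each receptor. Nrg2, Egf, Nrg4, Rhbdf1, Rhbdl2, Ier3, Etv4, Etv5, Fosl1, Dcn, Thy1, Lyz2, Ptprc, Stab2, the genes flanking members, and the immediate early genes were named after their values were seen. Single values of 2 list genes that this rule or the marker list would name are not reported here.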

Additional observations from a re-analysis of the deposited data

Results flagged for a closer look

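For 6 of the 9 tested receptor and ligand genes the effect against the same controls differed between the clones by a test of the difference itself. Over all tested genes 38.7% differed by this test. The differences on the log2 scale, Vcam1KO1 minus Vcam1KO2, were -6.86 for Areg (adjusted p = 1.67e-05), -3.21 for Btc (adjusted p = 3.63e-04), -2.04 for Ereg (adjusted p = 0.00331), -1.65 for Hbegf (adjusted p = 0.0128), -1.32 for Erbb3 (adjusted p = 0.0488) and 0.82 for Tgfa (adjusted p = 0.00412). The Erbb3 call rests on counts of 4 to 14 in the clones and was kept in only 6 of 16 alternatives. Each clone descends from 1 cell, so the clone and its Vcam1 edit cannot be told apart.

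Among the 6 Vcam1KO libraries, Vcam1KO1 replicate 3 stood apart in Egfr. Its gap to the next library was 0.65 of the range of the 6, above the critical value of 0.625. Of the 9 genes looked at in this way it was the only one past its limit, and chance alone passes about 1 in 20 such groups.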

How the results depend on the processing

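Of 611 log2 fold changes of members computed under alternatives, 582 kept their direction and their side of the threshold, 18 kept the direction but lost the call, 10 gained a call and 1 reversed, Egfr between the clones without Vcam1KO1 replicate 3 (-0.25; 0.25 without Vcam1KO1 replicate 2). Changed calls concerned Nrg1, Btc, Erbb3 between the clones and, under the 2-fold limit, Tgfa between the clones. Requiring at least a 2-fold change cut the genes called to 5003 for both clones together, 6835 for Vcam1KO1, 5519 for Vcam1KO2 and 3702 between the clones, and the pathway genes called to 20, 29, 21 and 21. Averaging the contrasts of both clones raised the pathway genes called to 56, and it gave 10464 genes in all. No other setting moved these counts by more than 1.5 times. With each library left out in turn, members called were 7 to 8, 8 to 9, 8 to 9 and 5 to 6 in these 4 comparisons, and 5583 to 8208 genes were called for both clones together. With the longest transcript as length, Areg held 18.3% and Hbegf 41.3% of the ligand sum in Vcam1KO2, Nrg1 held 1.61%, 47.2% and 23% in Vcam1ctrl, Vcam1KO1 and Vcam1KO2, Ereg 5.59% in Vcam1ctrl and 3.44% in Vcam1KO1, and Tgfa 4.21% in Vcam1ctrl. The other normalizations shifted the median of all genes by at most 0.07. Counts under 30 limit the size of the Areg change in Vcam1KO1 and of the Erbb3 changes. No paired analysis was possible because the labels give no replicate numbers.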
